A study of Mus musculus with 4 samples.

Results

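The late cornified envelope (Lce) genes encode small proteins of the uppermost epidermis and were read in cultured mouse keratinocytes. The genes were taken by symbol: 9 Lce genes (Lce1a1, Lce1a2, Lce1b, Lce1d, Lce1f, Lce1h, Lce1i, Lce3a and Lce3c) with 11 probe sets, out of 12393 genes that had a probe set of their own on the array. A probe set is the group of short probes by which the array reads a transcript. Each gene was read by its brightest probe set. Genes with at least 1 of 4 arrays at or over the table median of 20.04 intensity units were taken as measured. All 9 Lce genes were measured, among 7461 measured genes in all. Lce1g and Lce1l, the 2 further Lce genes with a probe set, stayed under this level, at 4.64 to 5.98 and 3.29 to 4.25.

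The cells were primary keratinocytes from the tail skin of C57BL/6 mice, grown without serum on rat collagen I. Every culture carried a floxed Prdm1 gene, that is, one whose flanking loxP sites let Cre recombinase cut it out. The product of Prdm1 is Blimp-1, which binds DNA by zinc fingers and represses transcription. Cells called CKO also had CreER, a Cre recombinase that enters the nucleus when 4-hydroxytamoxifen (4OHT) binds it, and cells called control did not. The promoter that drives CreER, the part of Prdm1 that is floxed and the number of mice behind each culture were not found in the labels. 4OHT or its solvent ethanol (EtOH) was in the medium from day 1 to day 3, and the cells were collected on day 5. This makes 4 groups of 1 array each, named by genotype and drug: control with EtOH or 4OHT, and CKO with EtOH or 4OHT. A single array per group allows no test and no error; the number of arrays limits the precision of every value below, and control and CKO cells also came from different mice.

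The cornified envelope is the protein shell that replaces the plasma membrane of a keratinocyte at the end of its differentiation. Transglutaminases crosslink precursors such as loricrin, involucrin, the small proline-rich (Sprr) proteins and, late in the sequence, the Lce proteins into this shell. The genes of most of these precursors lie together in the epidermal differentiation complex, where the Lce genes form a cluster of their own. Genes of group 1 are known as genes of normal epidermis, and those of group 3 are known in human skin for induction after barrier injury.

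Upstream sequences are shown because most Lce genes had differences of the same sign in each comparison below; they bear on the genes' starts and not on the array's probes, which read transcripts. RefSeq promoter windows of build GRCm38.p6 were matched by symbol for 8 of the 9 genes; Lce1f was not among them. Lce1d had the largest Lce differences in every comparison below except that of the EtOH cultures. The 120 bases before the transcription start are shown for 3 genes of group 1 (Lce1d, Lce1a2 and Lce1i) and for both genes of group 3. They lie at chr3:92687211-92687330 (Lce1d), chr3:92670316-92670435 (Lce1a2), chr3:92778900-92779019 (Lce1i) and chr3:92926231-92926350 (Lce3a), all on the minus strand, and at chr3:92944366-92944485 (Lce3c) on the plus strand. Capitals mark the block ACTGTCTCACAGG and the TATA-like motif ATAAAA.
Lce1d: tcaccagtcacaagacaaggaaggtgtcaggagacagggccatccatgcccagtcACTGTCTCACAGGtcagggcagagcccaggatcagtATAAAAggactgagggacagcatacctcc
Lce1a2: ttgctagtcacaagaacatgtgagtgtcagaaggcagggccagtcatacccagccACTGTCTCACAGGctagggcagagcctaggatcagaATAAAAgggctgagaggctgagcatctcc
Lce1i: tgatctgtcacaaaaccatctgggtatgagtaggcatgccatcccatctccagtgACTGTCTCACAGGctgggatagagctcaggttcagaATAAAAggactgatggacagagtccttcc
Lce3a: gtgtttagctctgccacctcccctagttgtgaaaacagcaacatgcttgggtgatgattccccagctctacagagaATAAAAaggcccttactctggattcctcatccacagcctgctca
Lce3c: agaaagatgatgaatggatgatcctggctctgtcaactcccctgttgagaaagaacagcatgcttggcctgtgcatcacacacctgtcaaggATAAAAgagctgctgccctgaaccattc

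The block ACTGTCTCACAGG is the longest run of bases shared by the windows of Lce1a1, Lce1a2, Lce1b, Lce1d, Lce1h and Lce1i, the 6 group 1 genes here that had a window, so its presence in them is the way it was found. It began 64 or 65 bases before the start in each of them. Over 250 bases before the start and on both strands, 7 of 32851 mouse windows (0.0213%) held it, those 6 and that of Lce1e, and those of Lce3a and Lce3c did not. The motif ATAAAA lay on the gene's own strand 45 to 20 bases before the start in 7 of the 8 windows, against 2.01% of all windows; Lce1a1 was the exception. The core motif of Blimp-1 (GNGAAAG), searched on both strands over the 250 bases, was in the windows of Lce3c, from 74 bases before the start, and Lce3a, from 250 bases before it, and not in those of the 6 group 1 genes. Over all 20 Lce windows it was in 7, those of Lce3a to Lce3f and of the group 1 gene Lce1l, and over all mouse windows in 19.4%. Motifs of AP-1 (TGANTCA) and of Grainyhead-like factors (AACNNGTT) were in none of the 8, against 6.75% and 3.64% of all windows. No motif overlaps another here, and a match is a run of letters, not a site shown to be bound. The 250-base windows of the group 1 genes were 65.2% to 81.3% identical in 15 pairs by global alignment. The 12 pairs of a group 1 with a group 3 gene reached 50.2% to 57.0%, and Lce3a with Lce3c 56.2%. That is near the 48.7% to 56.2% between Lce windows and those of 6 other genes of the complex (Lor, Sprr1a, Sprr1b, Hrnr, Rptn and 2310050C09Rik).

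Prdm1, the targeted gene, had an intensity of 20.7 with EtOH and 52.4 with 4OHT in control cells and of 17.0 and 6.43 in CKO cells. It was lowest where CreER and 4OHT met, as the labels have it, but whether its probe set lies in the floxed part is not known, and 3 of the 4 values are near or under the level filter.

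Lce transcripts were highest in control 4OHT for all 9 genes and lowest in CKO 4OHT for 8 of them. Lce1d (probe set 1420332_x_at) had an intensity of 58.2 with EtOH and 168 with 4OHT in control cells, and at 58.2 and 9.74 in CKO cells (EtOH first in each pair here and below). Both EtOH cultures thus stood at the same value, with 4OHT far above it in control cells and far below it in CKO cells. Lce1f (probe set 1420550_at) was at 88.6 with EtOH and 172 with 4OHT in control cells, and at 72.0 and 13.7 in CKO cells, the same order with a smaller distance between the control cultures. Lce1d and Lce1f in CKO 4OHT, and Lce1b there at 14.8, lay under the median of the table, so their folds are imprecise.

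The other group 1 genes had the same order of the arrays. Lce1a2 (probe set 1420350_at) was at 125 with EtOH and 301 with 4OHT in control cells, and at 97.3 and 34.8 in CKO cells. Lce1b (probe set 1419409_at) was at 42.0 and 109 in control cells and at 36.4 and 14.8 in CKO cells. For both genes the CKO 4OHT value was less than each of the other values by more than 2-fold. Lce1i (probe set 1420741_x_at) was at 176 and 381 in control and 161 and 53.7 in CKO cells. Lce1h (probe set 1449959_x_at) was at 246 and 506 in control and 232 and 102 in CKO cells, with the same order of arrays. Lce1a1 (probe set 1420677_x_at) was at 135 and 281 in control and 129.8 and 68.2 in CKO cells, the least spread of the group 1 genes. Intensities of different probe sets are not compared, since each set of probes binds with its own strength.

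The group 3 genes parted from each other. Lce3a (probe set 1456001_at) was at 89.5 with EtOH and 162 with 4OHT in control cells, and at 61.0 and 29.5 in CKO cells, which is the order of the group 1 genes. Lce3c (probe set 1419317_x_at) was at 312 with EtOH and 519 with 4OHT in control cells, and at 217 and 314 in CKO cells. Its level in CKO 4OHT was therefore above that in CKO EtOH and close to that in control EtOH, and it was the 1 Lce gene whose lowest array was CKO EtOH.

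**Figure D1:**
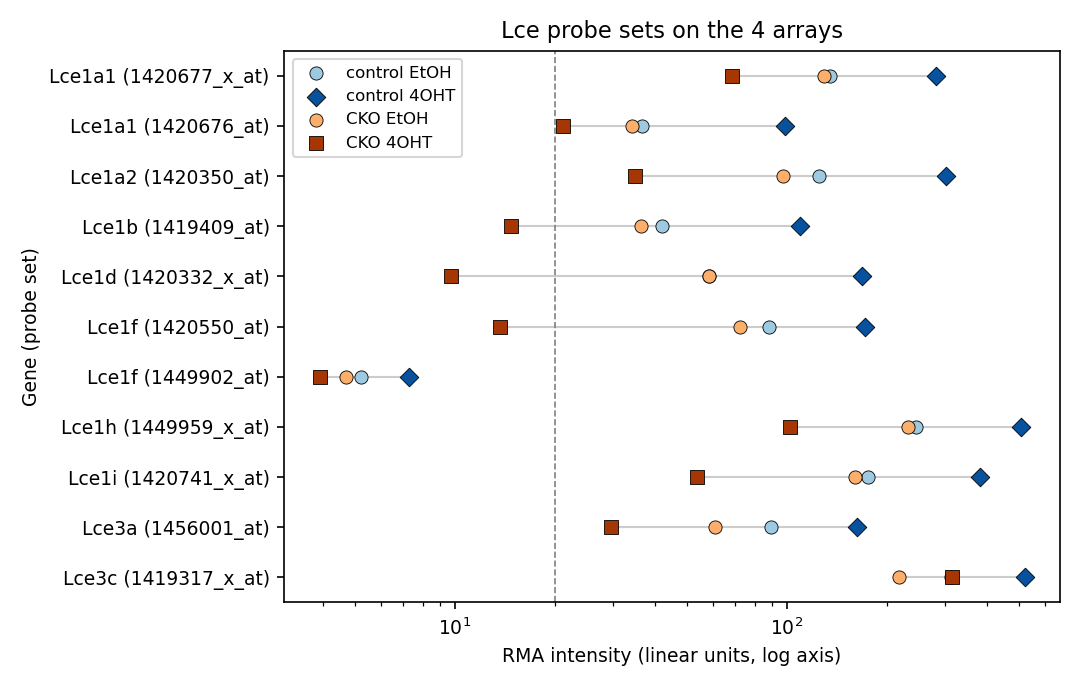
RMA intensity (log axis) of the 11 probe sets of the 9 Lce genes on the 4 arrays, 1 point per array, with a dashed line at the level filter of 20.04. The control 4OHT point lies furthest right in every line and the CKO 4OHT point furthest left in every line but that of Lce3c; the EtOH points of Lce1d coincide, and the control EtOH point of Lce3c (312) lies under that of CKO 4OHT (314).

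Second probe sets were at hand for Lce1a1 and Lce1f. The dimmer Lce1a1 probe set (1420676_at) was at 36.7 with EtOH and 98.7 with 4OHT in control cells, and at 34.1 and 21.1 in CKO cells, the order of the brighter one (1420677_x_at). The dimmer Lce1f probe set (1449902_at) was at 3.92 to 7.26 on all arrays, under the level filter, with the same order of the arrays and log2 differences of -0.26 for CKO 4OHT against CKO EtOH and -0.89 against control 4OHT. Near-identical family members can share probes: 5 of the 9 genes (Lce1a1, Lce1d, Lce1h, Lce1i and Lce3c) were read by a probe set whose suffix _x_at marks possible cross-hybridisation, so a single member is less certain than the family. The 4 genes read by plain _at probe sets (Lce1a2, Lce1b, Lce1f and Lce3a) had log2 differences of -2.40 to -1.05 for CKO 4OHT against CKO EtOH, and the 5 others -2.58 to 0.53.

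Inducer was first set against solvent in cells with CreER (CKO 4OHT against CKO EtOH). Of the 9 Lce genes, 7 were at least 2-fold lower and none was 2-fold higher, whereas 1.86% of all measured genes were 2-fold lower. The median log2 difference was -1.30, against 0.01 over all 7461 measured genes. Lce1d was 5.98-fold and Lce1f 5.26-fold lower (log2 differences of -2.58 and -2.40, or -1.53 and -1.57 with 16 intensity units added before log2). Lce1i (2.99-fold), Lce1a2 (2.79-fold), Lce1b (2.46-fold), Lce1h (2.27-fold) and Lce3a (2.07-fold) followed. Lce1a1 was 1.90-fold lower, just short of the count, and Lce3c was higher by 0.53 on the log2 scale. In these bulk cultures fewer cells expressing a gene and less RNA per cell cannot be told apart.

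Under 4OHT, CreER was then set against no CreER (CKO 4OHT against control 4OHT). All 9 Lce genes were lower and 8 of them at least 2-fold, against 2.24% of all measured genes, with a median log2 difference of -2.83 (0.01 over all). Lce1d was 17.3-fold, Lce1f 12.5-fold, Lce1a2 8.63-fold, Lce1b 7.40-fold and Lce1i 7.09-fold lower. Lce3a (5.51-fold), Lce1h (4.97-fold) and Lce1a1 (4.12-fold) were lower by less, and Lce3c by 1.65-fold. The folds of the dim genes depend on the setting: with 16 intensity units added before log2 the differences were -2.84 for Lce1d, -2.66 for Lce1f and -2.03 for Lce1b, against -4.11, -3.65 and -2.89 without, and the mean of both probe sets gave -2.27 for Lce1f. This comparison shares the CKO 4OHT array with the one before, and its larger values go with the high control 4OHT levels.

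In control cells, 4OHT against EtOH went the other way. Of the 9 Lce genes, 6 were at least 2-fold higher, against 1.27% of all measured genes, and the median log2 difference was 1.06 (-0.04 over all). The range was narrow, from 0.74 for Lce3c and 0.86 for Lce3a to 1.38 for Lce1b and 1.53 for Lce1d. Lce1f at 0.95 was the other gene under 2-fold. In the EtOH cultures, CKO against control, no Lce gene and 0% of all measured genes were 2-fold lower. The Lce differences there ran from -0.55 for Lce3a and -0.52 for Lce3c to 0 for Lce1d, and their median was -0.21 (-0.03 over all). The largest of these differences without inducer were thus those of the 2 group 3 genes.

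The drug effect in CKO cells minus that in control cells puts all 4 arrays together. It was below 0 for all 9 Lce genes and at or below -1 for 8 of them, against 2.90% of all measured genes, with a median of -2.68 (0.04 over all). Lce1d, at -4.11, had rank 3 from the lowest of the 7461 genes, Lce1f (-3.35) rank 9 and Lce1a2 (-2.75) rank 15. The 8 genes ranked between 3 and 46, and Lce3c (-0.21) ranked 1951. For Lce3c the drug differences were 0.74 in control and 0.53 in CKO cells, so this gene alone among the 9 was higher with 4OHT in both genotypes.

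**Figure D2:**
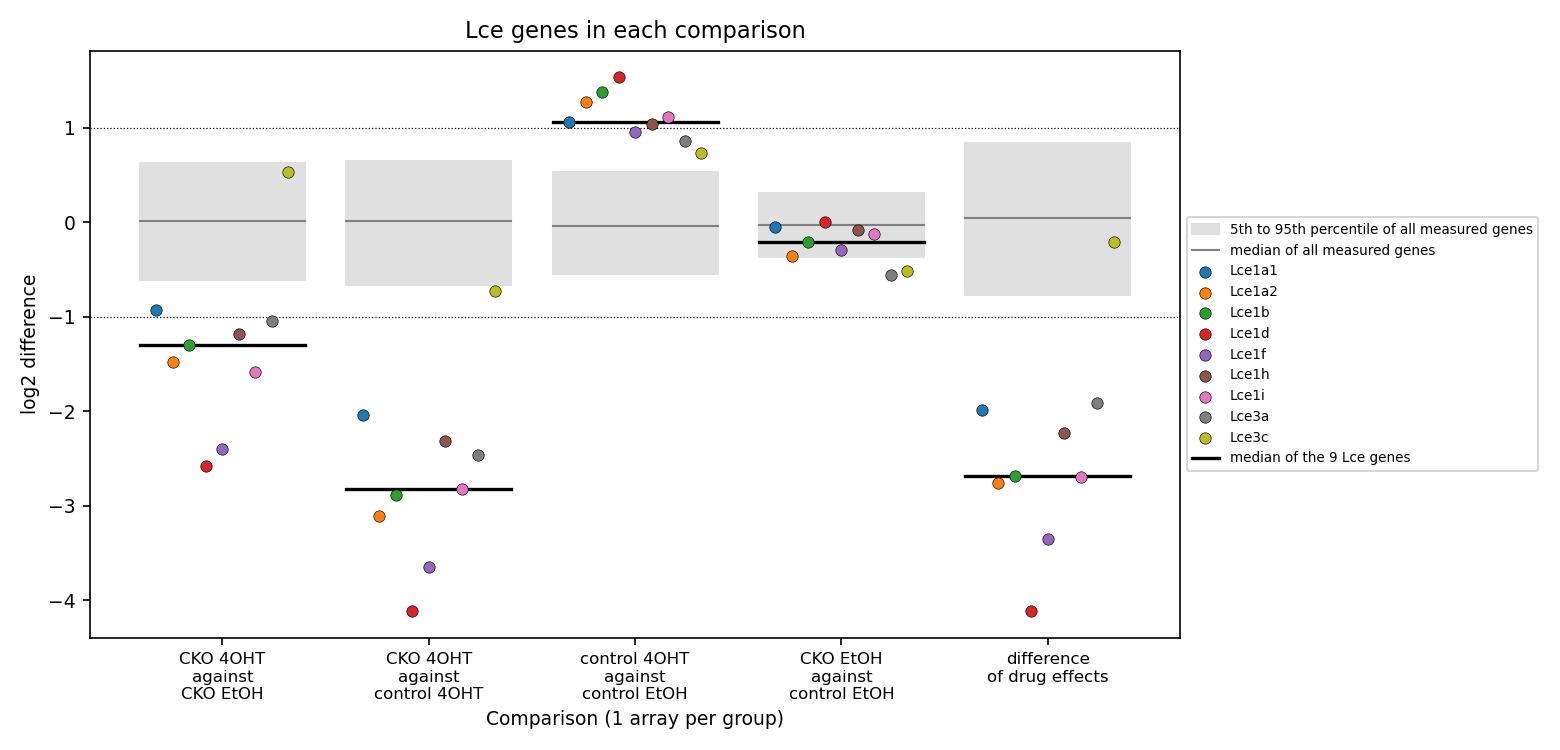
Log2 differences of the 9 Lce genes in 4 comparisons and in the difference of drug effects (CKO minus control), 1 coloured point per gene, with the median of the Lce genes (black), the median of all 7461 measured genes (grey line) and their 5th to 95th percentile (grey box); dotted lines mark 2-fold. The black lines stand at -1.30, -2.83, 1.06, -0.21 and -2.68, and Lce3c is nearest to 0 in the last column.

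Array by array, 7 Lce genes lay at least 2-fold below all 3 other arrays in CKO 4OHT, against 1.09% of all measured genes. At the other end, 6 Lce genes (Lce1a1, Lce1a2, Lce1b, Lce1d, Lce1h and Lce1i) lay at least 2-fold above all other arrays in control 4OHT, where 21 genes (0.281%) did so in all. Lce1d had the widest margin among the 6 Lce genes, 1.53 above the next array on the log2 scale. Besides the 6 Lce genes, 5 more of these 21 genes belong to the epidermal differentiation complex: Rptn, Hrnr, Sprr2f, Sprr2i and 2310050C09Rik. Prdm1 was also 1 of the 21, at 1.34 above the next array.

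The targeted gene itself had the pattern most like that of the Lce genes. Likeness was the distance between a gene's 4 log2 values, centred on their mean, and the mean centred profile of the 9 Lce genes. Over 4 arrays it describes little more than the order and size of 3 differences, and it says nothing on shared function or control. Prdm1 came first of all measured genes that are not Lce genes, with a distance of 0.26. It was highest in control 4OHT and lowest in CKO 4OHT, where its 6.43 is a level at which dim signal is not resolved. Hrnr, which encodes the envelope protein hornerin, was next at 0.34, followed by Lpo, the gene of the antimicrobial enzyme lactoperoxidase, at 0.38. Sprr2f (0.59), the B cell adaptor gene Blnk (0.61), Cyp1b1 (0.62), a cytochrome P450, Serpinb7 (0.68), a serine protease inhibitor, Aldoc (0.71), an aldolase of glycolysis, Il33 (0.74), an alarmin cytokine, and Psmb8 (0.81), an immunoproteasome subunit, completed the 10 nearest. Among the Lce genes Lce1i (0.18) and Lce1b (0.21) lay closest to the mean and Lce1d (1.11) and Lce3c (1.58) farthest. The median distance over all measured genes was 1.93, and 600 genes lay closer to the mean than Lce3c. Because the distance counts size, genes with little change over the arrays lie far from the profile. Only 34 measured genes varied more over the arrays, by standard deviation, than the mean profile did. With Pearson correlation in place of distance, none of these 10 genes was among the 10 nearest.

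**Figure D3:**
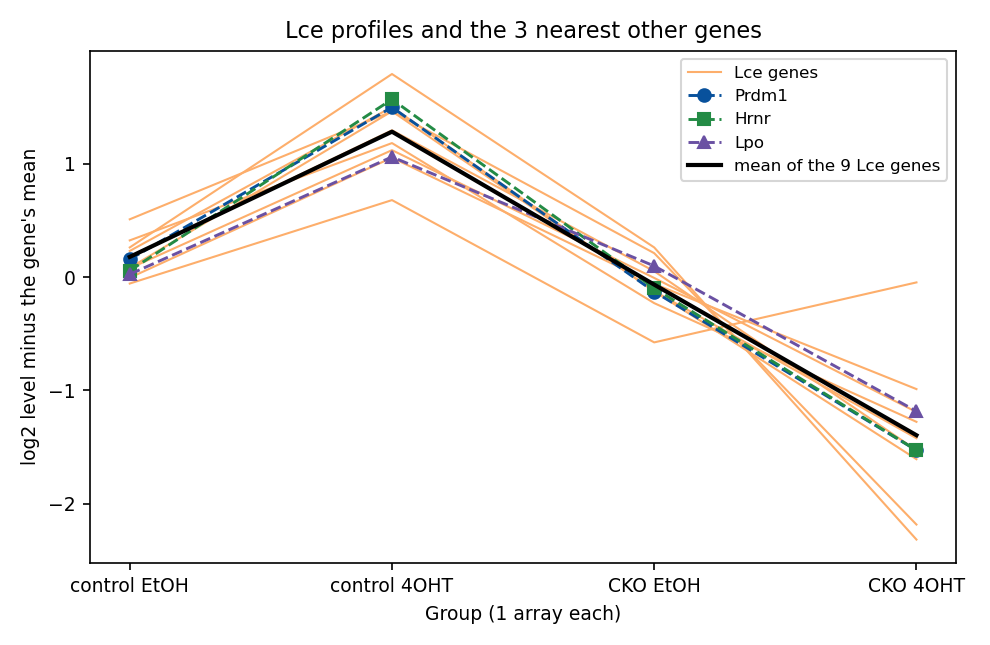
Log2 level minus the gene's own mean on the 4 arrays for the 9 Lce genes (orange), their mean (black) and the 3 nearest other genes (dashed). The mean profile runs from 0.18 in control EtOH to 1.28 in control 4OHT, and from -0.07 to -1.40 in the CKO pair, and Prdm1 and Hrnr follow it; the orange line that ends near 0 (-0.05) is Lce3c.

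Within the Lce cluster, Lce3c and the next measured gene, Crct1, were higher with 4OHT in CKO cells, unlike the other measured genes there. Lce3c was read by 1 probe set, which may cross-hybridise. Hrnr and Rptn, which lie beyond Crct1, were lower with 4OHT in CKO cells. Among the measured genes in RefSeq order, the group 1 genes Lce1a1, Lce1b, Lce1a2, Lce1d, Lce1f, Lce1h and Lce1i come first, followed by 2310050C09Rik, Lce3a, Lce3c and Crct1. Crct1 encodes a cysteine-rich protein and lies between the last group 3 gene and Lce1m. It was at 642 with EtOH and 1593 with 4OHT in control cells, and at 730 and 2127 in CKO cells, so it was 1.54 higher on the log2 scale with 4OHT in CKO cells, where the nearest measured Lce gene, Lce3c, was 0.53 higher and Lce3a 1.05 lower. 2310050C09Rik, between Lce1l and Lce3a, was at 22.4 with EtOH and 57.7 with 4OHT in control cells, and at 24.6 and 16.1 in CKO cells. These are the directions with 4OHT of the group 1 genes, at a low level. Of the 20 other measured genes between S100a1 and S100a10, the ends of the complex, 9 were at least 2-fold higher with 4OHT in control cells (median 0.92). Over all measured genes the share was 1.27%. In CKO cells 3 of the 20 were at least 2-fold lower with 4OHT (Sprr2f, Hrnr and Rptn) and 1 was higher (Crct1), with a median of -0.12. Over all measured genes 1.86% were 2-fold lower there. Against control 4OHT, 7 of the 20 were at least 2-fold lower in CKO 4OHT (median -0.58), where 2.24% of all measured genes were. The difference of drug effects was at or below -1 for 9 of the 20 (median -0.63), against 2.90% of all measured genes.

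**Figure D4:**
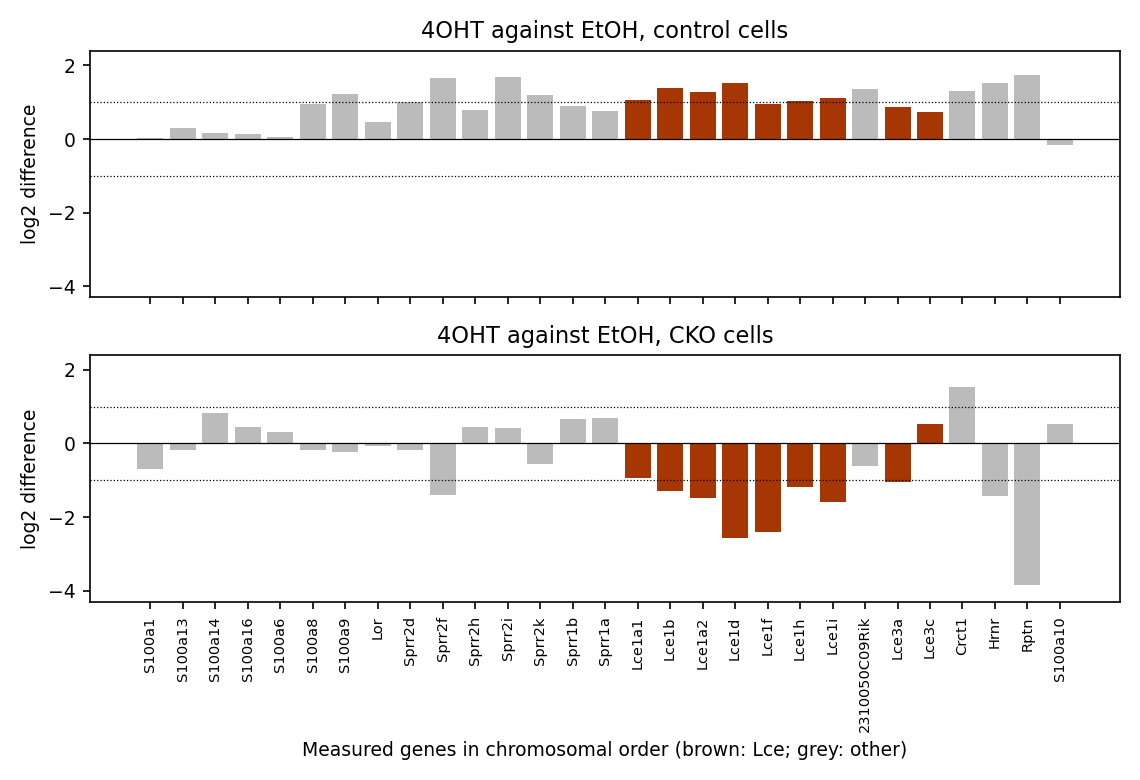
Log2 differences of 4OHT against EtOH in control cells (top) and CKO cells (bottom) for the 29 measured genes from S100a1 to S100a10 in chromosomal order, 1 bar per gene, brown for Lce genes and grey for others; spacing is not to scale and dotted lines mark 2-fold. In control cells all Lce bars point up, by 0.74 to 1.53, and in CKO cells all but that of Lce3c (0.53) point down, by up to 2.58 (Lce1d), beside Rptn (-3.83) and, upward, Crct1 (1.54).

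Other cornified envelope genes were set beside the Lce genes. The S100-fused proteins repetin (Rptn) and hornerin (Hrnr), large repeat proteins of the upper layers, had log2 differences of 1.74 and 1.51 for 4OHT in control cells and of -3.83 and -1.43 in CKO cells, the directions of the group 1 Lce genes. In CKO 4OHT their intensities were 3.82 and 10.5, under the level filter of 20.04, so the sizes of the CKO differences are imprecise. The 8 measured Sprr genes had medians of 1.11 in control cells, with 5 at least 2-fold higher, and of 0.13 in CKO cells, with 1 lower and none higher. Over all measured genes 1.27% were 2-fold higher in control cells and 1.86% lower in CKO cells. The 8 include Sprr2j-ps, a pseudogene by its symbol, which is counted among the 5 here and in the comparisons that follow. Against control 4OHT, 5 of these 8 were at least 2-fold lower in CKO 4OHT (median -1.06), where 2.24% of all measured genes were. Their difference of drug effects was at or below -1 for 5 (median -1.22), against 2.90% of all measured genes. Sprr1a and Sprr1b, precursors that are crosslinked into the envelope, were 0.77 and 0.89 higher in control cells and 0.70 and 0.67 higher in CKO cells. The 11 measured genes of the crosslinking and scaffold list had a median of 1.01 in control cells, with 6 at least 2-fold higher, against 1.27% of all measured genes. In CKO cells the median was 0.37, with 1 higher and none lower. The 1 higher gene was Tgm1, the transglutaminase that crosslinks the envelope, at 1.51 in control and 1.56 in CKO cells. Not all members are crosslinkers or scaffolds. The list also holds Krtdap, Dmkn, Cdsn, Asprv1 and Cstb, and Krtdap, Cdsn and Asprv1 are among the 6. Against control 4OHT, 1 of these 11 was at least 2-fold lower in CKO 4OHT (median -0.28), against 2.24% of all measured genes. The difference of drug effects was at or below -1 for 1 of them (median -0.61), against 2.90% of all measured genes. Krtdap and Dmkn, secreted products of differentiating keratinocytes, were 0.35 and -0.12 in CKO cells. These lists, like the Lce genes, were chosen with earlier results of these arrays known, and with 1 array per group the differences between lists could not be tested.

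Genes of other layers and regulators were set beside the Lce genes. Of 7 suprabasal keratin and desmosome genes, 1 was at least 2-fold lower with 4OHT in CKO cells, against 1.86% of all measured genes. It was Krt1, a keratin of the first suprabasal layers (-3.23), and the median was -0.19. In control cells Krt1 was 0.86 higher with 4OHT, so it had the directions of the group 1 Lce genes. Its difference of drug effects was -4.09. That difference was at or below -1 for 3 of the 7 (median -0.70), against 2.90% of all measured genes. The others were Dsc1 (-2.04) and Krt10 (-1.15). With 4OHT these were at 1.86 and 0.75 in control and at -0.19 and -0.40 in CKO cells. Against control 4OHT, Krt1 (-3.50) and Dsc1 (-1.41) were the 2 of the 7 at least 2-fold lower, against 2.24% of all. Dsc1 was also 1 of the 21 genes at least 2-fold above all other arrays in control 4OHT. The 8 measured S100 genes of the complex encode calcium-binding proteins. With 4OHT in CKO cells they had a median of 0.07 with none past 2-fold, S100a9 at -0.24 and S100a10 at 0.54. In control cells their median was 0.14, with 1 at least 2-fold higher (S100a9, 1.23), against 1.27% of all measured genes. Against control 4OHT none of the 8 was 2-fold lower in CKO 4OHT (median -0.01). Their difference of drug effects was at or below -1 for 2, S100a9 (-1.47) and S100a8 (-1.13), against 2.90% of all measured genes. Its median was -0.10. The 11 basal keratinocyte genes had a median of -0.04 with 4OHT in CKO cells, with 1 of them 2-fold higher, Itga3 (1.30), an integrin subunit. Of 21 measured regulators of late epidermal differentiation, Prdm1 (-1.40) and Gata3 (-1.07), a zinc finger factor, were at least 2-fold lower with 4OHT in CKO cells. Over all measured genes 1.86% were. Hopx (1.15), a homeodomain-only protein of differentiating cells, was higher. Gata3 was at 92.5 with EtOH and 78.8 with 4OHT in control cells, and at 82.1 and 39.1 in CKO cells, so unlike Prdm1 it was not higher in control 4OHT. The median of the regulators was -0.08.

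**Figure D5:**
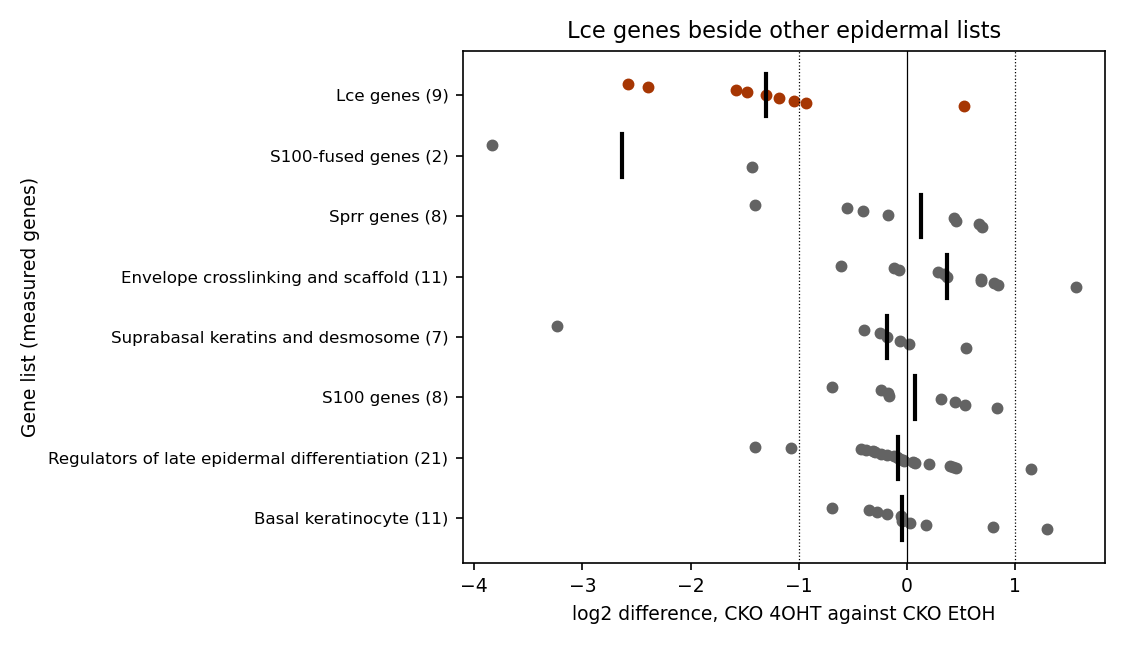
Log2 differences of CKO 4OHT against CKO EtOH for the measured genes of 8 lists, 1 point per gene, with the median of each list as a black bar, the number of genes in brackets and dotted lines at 2-fold. The Lce genes stand around a median of -1.30, the Sprr genes around 0.13 and the crosslinking and scaffold list around 0.37, where the rightmost point is Tgm1 (1.56).

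Markers were read to see which cells the arrays hold. Krt14 and Krt5, keratins of basal keratinocytes, were at 6437 to 6663 and 3298 to 3774 on the 4 arrays. The summed intensity of 7 fibroblast markers was 68.0 to 73.5, with 1 of 7 over the level filter (Dcn). That of 7 leukocyte markers was 84.4 to 89.0 (1 over the filter, Cd3e), and that of 5 endothelial markers 35.1 to 42.6 (none over it). The sum of the 5 melanocyte markers on the array was 91.0 to 96.8 on 3 arrays and 114 in CKO 4OHT, with Dct, Pmel and Tyrp1 over the filter. The sum of the 6 sebocyte markers was 981 to 1108 on those 3 arrays and 1360 in CKO 4OHT, with Plin2, Scd1 and Cidea over the filter, and that of the 10 hair follicle markers was 3380 to 3606, most of it Krt17, a keratin of cultured keratinocytes too. Within these sums, Krt75, a keratin of the hair follicle's companion layer, was at 73.0 with EtOH and 144 with 4OHT in control cells, and at 80.3 and 166 in CKO cells. Cidea, a lipid droplet gene, was at 17.0 and 52.6 in control and at 26.7 and 56.4 in CKO cells. Both were higher with 4OHT in both genotypes, the direction of the Lce genes in control cells and, Lce3c apart, not in CKO cells. The other hair follicle and sebocyte markers over the filter differed less. For 4OHT against EtOH, Krt17 had log2 differences of -0.01 in control and -0.05 in CKO cells, and Msx2 of -0.03 and -0.02. Scd1 had 0.29 and -0.35, and Plin2 0.02 and 0.60. The part of the melanocyte, sebocyte and hair follicle genes in the Lce differences was not tested.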

How the data were processed

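RNA of 4 cultures was labelled by 3′ in vitro transcription and hybridised to the Affymetrix Mouse Expression Array 430A, per the labels' protocols. The deposited values are intensities from 2.66 to 7167, not logged, for 22626 probe sets. The submitters' processing notes name RMA, which subtracts background, equalises the arrays and combines the probes of a set. RMA pulls the arrays to like distributions (medians 19.95 to 20.22), so a shift of most transcripts would be lost, and it compresses dim values. The table holds no detection calls or control probe sets, so RNA quality was not read.

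Values were turned to log2 with no pseudocount. Genes were named by the platform annotation from the 20380 probe sets that list 1 gene (691 list several, 1555 are not listed), and a gene's probe set was the one of highest mean log2. The level filter was the median of the table (20.04). A gene was counted at a log2 difference of at least 1. With 1 array per group no test was run.

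The Lce genes and all lists were chosen with earlier results of these data known. Named genes were the Lce genes, list members at least 2-fold below or above all other arrays in CKO 4OHT or else the 2 with the highest mean, and the 10 nearest by profile. Tgm1, Itga3, Hopx, Sprr2f, Sprr2i, Sprr2j-ps, 2310050C09Rik, S100a8, Dsc1, Krt10, Cdsn, Asprv1, Cstb and marker genes were named after their values were seen. The core form of the Blimp-1 motif was taken after a longer form had been found in none of the Lce windows. Promoters came from RefSeq (GRCm38.p6), and identity from global alignment in Biopython 1.88. Python 3.11.15, numpy 2.4.6 and pandas 2.3.3 were used. Alternatives were the filter, the probe set, the normalization, a pseudocount, the fold threshold and the measure of likeness.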

Additional observations from a re-analysis of the deposited data

Results flagged for a closer look

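For 8 of the 9 Lce genes the log2 difference of 4OHT against EtOH was above 0 in control cells and below 0 in CKO cells. Each side rests on 1 array per group, and the difference between the genotypes was not tested. The drug effect in CKO cells minus that in control cells was -4.11 for Lce1d, -3.35 for Lce1f, -2.75 for Lce1a2, -2.70 for Lce1i, -2.68 for Lce1b, -2.23 for Lce1h, -1.99 for Lce1a1 and -1.91 for Lce3a.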

How the results depend on the processing

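No filter on low values, a filter at the 75th percentile, the mean of all probe sets of a gene, centring the arrays on their medians and quantile normalization kept every count of Lce genes within 1.5 times and every Lce median within 0.58 (log2) of the value reported. The filters could not change the Lce counts and medians, since all 9 Lce genes passed them and their values do not depend on the filter. RMA had already given the arrays like distributions (medians 19.95 to 20.22), so centring and quantile normalization had little to change. Without probe sets that may cross-hybridise, 5 of the 9 Lce genes remained, and because of this smaller number 4 were 2-fold lower in CKO 4OHT against CKO EtOH, 5 against control 4OHT, 3 were higher in control 4OHT against control EtOH, 4 lay below all other arrays in CKO 4OHT and 3 above them in control 4OHT. Adding 16 intensity units before log2, which shrinks differences of dim genes, gave medians of -2.15 for CKO 4OHT against control 4OHT and -2.07 for the difference of drug effects. With these units added, 5 Lce genes in place of 7 were 2-fold lower in CKO 4OHT against CKO EtOH. In control 4OHT against control EtOH 4 in place of 6 were higher. Below all other arrays in CKO 4OHT lay 5 in place of 7, and above them in control 4OHT 4 in place of 6. The count of 8 against control 4OHT stayed. At 3-fold the counts were 2 for CKO 4OHT against CKO EtOH, 0 for control 4OHT against control EtOH, 2 below all other arrays in CKO 4OHT and 0 above them in control 4OHT, where 0.402%, 0.201%, 0.201% and 0.0402% of all measured genes passed. The 10 genes of like pattern shared 0 genes with the 10 of highest Pearson correlation, a measure that ignores the size of the differences. Of 295 single gene values, 284 moved by less than 0.58 and 11 by more, 3 of them of Lce1f with the mean of its probe sets (-1.33 for CKO 4OHT against CKO EtOH, -2.04 for the difference of drug effects) and 8 of Lce1d, Lce1f and Lce1b with 16 units added (differences of drug effects of -2.84, -2.41 and -1.88). Many of the 284 could not move. The filters leave the Lce values as they are, and the mean of all probe sets changes only Lce1a1 and Lce1f. Without probe sets that may cross-hybridise, only Lce1a1 changed its probe set among the genes that remained. The count above all other arrays in control 4OHT was added after seeing the data. Leaving out the other 4OHT array, also added then, left the Lce counts as they were. For the Lce genes other than Lce3c that array was at the opposite end, so leaving it out could not change their part of the counts. Over all genes, leaving it out gave 98 in place of 81 and 42 in place of 21. No paired analysis was possible because each group has 1 array. Dim levels, not the arrays' number alone, limit Lce1d, Lce1f and Lce1b in CKO 4OHT.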
